A study of Homo sapiens with 22 samples.

Results

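Gene expression after epigenetic drug treatment was compared between Burkitt lymphoma (BL) cell lines and cell lines of follicular lymphoma (FL) and germinal centre type diffuse large B-cell lymphoma (DLBCL GCB). The members were taken by cell line and treatment label alone, which gave 8 of the 22 arrays of the series. The BL group held Ramos, Raji and BL41, 3 treated arrays. The FL/GCB group held SC-1, K422 and ROS-50 (FL) with Sudhl4 and Sudhl6 (GCB), 5 treated arrays. The 6 arrays of activated B-cell type lines were left out. All 8 cultures received 5-aza-2′-deoxycytidine (aza), renewed every 24 h over 72 h, and trichostatin A (TSA) for the last 12 h, at 1 µM and 0.5 µM by the methods of the study. An untreated culture of each line, grown for the same time, was used here to show which differences were present before treatment. It was also used for the response of each line, treated minus untreated. Each established line descends from the tumour of 1 patient and was represented by 1 culture per condition, so that the line was the replicate and the number of arrays limits the precision. Of the BL lines, Raji carries the Epstein-Barr virus, and Ramos and BL41 do not. No culture received aza or TSA alone, and the shares of both drugs in any difference cannot be told apart.

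BL is driven by translocations that place MYC under immunoglobulin enhancers, and FL typically carries a translocation of BCL2. Both, like DLBCL GCB, resemble B cells of the germinal centre, where B cells proliferate, mutate their immunoglobulin genes and are selected through the B-cell receptor and T-cell help. Aza is built into DNA and traps DNA methyltransferases, so that dividing cells lose CpG methylation, and TSA blocks histone deacetylases. Genes silenced by these marks, among them germline genes, are known to become transcribed after such treatment in many cancer lines.

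Levels are given as log2 of the array signal after quantile normalization, where 1 unit is a 2-fold difference in signal and each array has a median of 10.18. Levels of different genes are not compared, since array elements differ in brightness. Before normalization, the 75th percentile of the signal lay between 4310 and 8601 on the treated BL arrays and between 3751 and 15058 on the treated FL/GCB arrays, lowest in BL41 and Sudhl4 (exact two-sided permutation test, p = 0.857, smallest possible p = 0.0179). In a principal component analysis of the treated arrays, Sudhl4 and ROS-50 lay at one end of the first axis (20.2% of the variance) and BL41 far from all other lines on the second (19.0%). Of 5 measured B-cell markers, 4 were above the array median in 2 or more treated lines of a group. MS4A1 and CD79B were above it in every treated line, but lower than in the untreated culture in 8 of 8 lines. Of the other markers, CD79A was higher after treatment in 1 of 8 lines and PAX5 in 4 of 8. MS4A1, which encodes CD20, lay between 12.06 and 15.45 in BL and between 11.63 and 14.79 in FL/GCB, and CD79B between 12.39 and 14.82 in BL and between 13.81 and 15.65 in FL/GCB.

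The treated BL lines were about as like the FL/GCB lines as like each other. Pearson correlation over all elements had a median of 0.907 within BL (3 pairs), 0.912 between BL and FL/GCB (15 pairs) and 0.916 within FL/GCB (10 pairs). Of 32878 elements, 0 were higher and 0 lower in BL at an adjusted p under 0.05 (limma, two-sided, 0% called in each direction). The smallest adjusted p was 0.486 (limma), and 1650 elements (5.02%) had an unadjusted p under 0.05, near the 5% that this level gives without any difference. The median 95% interval of a difference reached 1.07 log2 units to either side, while the median size of a difference was 0.35, so that most 2-fold differences were not detectable with 3 lines against 5. All 3 BL lines lay above all 5 FL/GCB lines for 583 elements (1.77%) and below them for 548 (1.67%). Of the 56 ways to pick 3 of the 8 lines, 1 gives each of these orders, a share of 0.0179. Both shares were thus near that of lines in random order. On signals without normalization the counts were 563 and 223. None of the differences given below passed the test, and they are described by the values of the lines.

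Of 15461 named genes, 295 (1.91%) were higher in all BL lines than in all FL/GCB lines, and 12 of them with the largest differences are described. CR2, the complement receptor CD21, measured 13.98 in Ramos, 14.95 in Raji and 13.59 in BL41, against 8.27 in SC-1, 9.34 in K422, 10.59 in ROS-50, 11.65 in Sudhl4 and 9.50 in Sudhl6. The lowest BL line was thus above the highest FL/GCB line, Sudhl4, and the difference was 4.30 (95% interval 2.79 to 5.82, limma adjusted p = 0.486). The difference had been 5.62 in the untreated lines (4.20 to 7.04, adjusted p = 0.116), where CR2 was also separated without overlap. CD58, a ligand of the T-cell adhesion receptor CD2, measured 12.71, 13.88 and 11.47 in Ramos, Raji and BL41, against 7.53 to 10.67 in the FL/GCB lines, with the lowest level in ROS-50 and the highest in K422. The difference was 3.80 (2.14 to 5.46) after treatment and 3.28 before it, when Sudhl6 (11.50) lay above BL41 (11.33). ZDHHC14, a palmitoyltransferase, was highest in Raji at 16.19, followed by 13.48 in Ramos and 12.52 in BL41, against at most 11.98 in FL/GCB, in SC-1. Its differences were 3.59 in treated and 4.45 in untreated lines, and the groups did not overlap in either.

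UCHL1, a deubiquitinase, was near 17 in all BL lines, at 17.06, 17.01 and 17.34 in Ramos, Raji and BL41. The FL/GCB lines spread from 10.79 in Sudhl4 and 11.36 in K422 over 14.54 in ROS-50 and 15.53 in SC-1 to 16.76 in Sudhl6. The difference of 3.34 therefore had a wide interval (0.72 to 5.97), and in untreated cultures Sudhl6 (16.90) lay above Ramos (16.66) and Raji (16.71). PLAAT4, a phospholipase and acyltransferase, and APOL3, an apolipoprotein L family member, were far higher in Raji than in the other BL lines. PLAAT4 was 16.34 in Raji but 11.34 in Ramos and 11.13 in BL41, against 8.84 to 10.56 in FL/GCB, and APOL3 was 14.18 in Raji, 11.51 in Ramos and 9.57 in BL41, against 7.77 to 9.33. TEAD1, a transcription factor of the Hippo pathway, was highest in BL41 at 13.40, with 11.74 in Raji and 10.22 in Ramos, against 7.45 to 9.62 in FL/GCB. A second element of TEAD1 differed by 0.74 only, with overlapping lines.

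For 5 of the 12 genes (GBP5, IL15, IL18, IL1B and CCL5), the untreated difference had been below 1 log2 unit in size. GBP5, a guanylate-binding protein known as a target of interferon gamma, measured 11.07, 12.70 and 11.25 in treated Ramos, Raji and BL41, against 8.14 in SC-1, 8.13 in K422, 8.76 in ROS-50, 8.22 in Sudhl4 and 6.92 in Sudhl6. All 5 FL/GCB levels were below the array median, and the difference of 3.64 (2.50 to 4.78) was among those with the smallest adjusted p (limma, 0.486). In untreated cultures GBP5 lay between 8.50 and 8.82 in BL and between 7.25 and 8.89 in FL/GCB. IL15, a cytokine that sustains T and NK cells, measured 13.44, 12.67 and 11.24 in treated Ramos, Raji and BL41, against 8.83, 9.09, 8.02, 10.59 and 7.60 in SC-1, K422, ROS-50, Sudhl4 and Sudhl6. Its untreated levels had overlapped, at 8.14 to 8.24 in BL and 7.80 to 9.44 in FL/GCB. Treated minus untreated, IL15 was 5.23, 4.43 and 3.10 in Ramos, Raji and BL41, against -0.75 to 1.39 in the FL/GCB lines, and this response differed by 4.17 (2.82 to 5.52, limma adjusted p = 0.468).

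IL18, a cytokine of the interleukin 1 family, measured 12.06, 10.53 and 11.50 in treated Ramos, Raji and BL41, against 6.58 in SC-1 to 8.85 in Sudhl6. The difference was 3.27 (1.99 to 4.55) in treated and 0.54 in untreated lines. IL1B, of the same family, was 11.85, 13.43 and 10.62 in Ramos, Raji and BL41, against 7.66 in Sudhl4 to 10.06 in K422, so that BL41 and K422 were only narrowly apart. CCL5, a chemokine that draws T cells, was 16.85 in Raji, 13.60 in Ramos and 12.98 in BL41, against 8.53 in ROS-50, 10.56 in SC-1, 10.61 in K422, 10.63 in Sudhl6 and 12.32 in Sudhl4. Its difference was 3.95 (limma adjusted p = 0.900) in treated lines and 0.76 in untreated lines, where no BL line was above 10.54. Raji had the highest BL level for 8 of the 12 genes, Ramos for 2 and BL41 for 2.

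**Figure D1:**
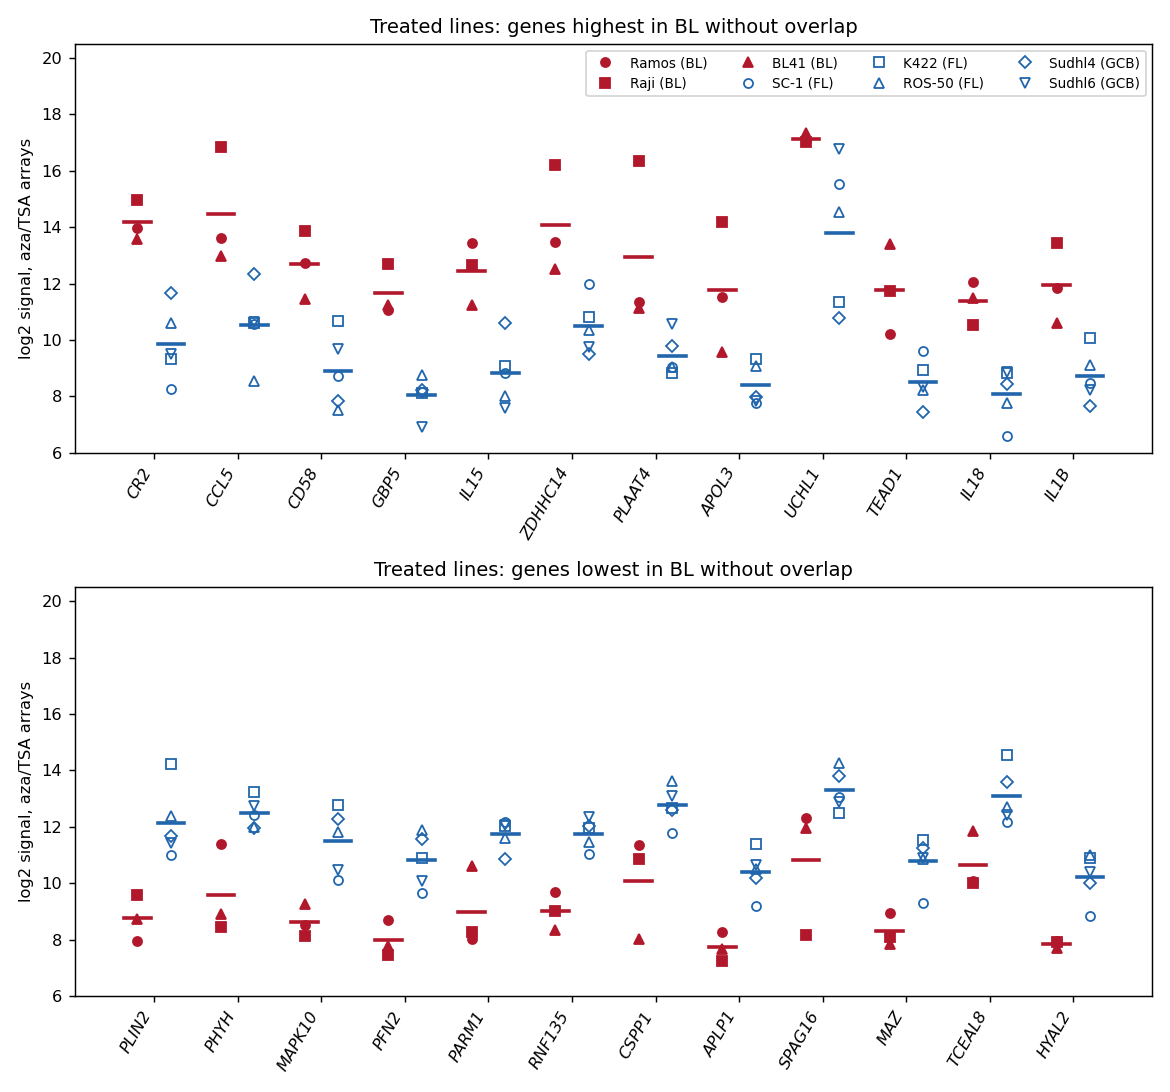
Log2 signal of 24 genes on the treated arrays, 12 highest (upper panel) and 12 lowest (lower panel) in BL without overlap of the lines. Filled red symbols left are the 3 BL lines, open blue symbols right the 5 FL/GCB lines, and bars are group means, for CR2 14.17 in BL and 9.87 in FL/GCB.

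In the other direction, 259 named genes (1.68%) were lower in all BL lines than in all FL/GCB lines, and 12 of them with the largest differences are described. PLIN2, which coats lipid droplets, measured 7.96, 9.57 and 8.73 in Ramos, Raji and BL41, against 11.01 in SC-1, 14.22 in K422, 12.38 in ROS-50, 11.69 in Sudhl4 and 11.43 in Sudhl6. The difference was -3.39 (-4.91 to -1.88, limma adjusted p = 0.614), and it was -2.55 before treatment. PHYH, a peroxisomal enzyme that breaks down phytanic acid, was 11.40 in Ramos, 8.44 in Raji and 8.92 in BL41, against 11.96 to 13.25 in FL/GCB. Ramos was thus close to the lower FL/GCB lines.

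MAPK10, the kinase JNK3, and TCEAL8, of the transcription elongation factor A-like family, had larger differences of the group means before treatment than after it. MAPK10 was 8.50, 8.14 and 9.26 in treated Ramos, Raji and BL41, against 10.13 in SC-1 to 12.77 in K422, a difference of -2.86. In untreated lines its difference was -3.94, but the groups overlapped, with SC-1 (8.44) below Ramos (8.48) and BL41 (8.79). TCEAL8 was 10.07 in treated Ramos, just below that in Raji and 11.86 in BL41, against 12.17 in SC-1 to 14.55 in K422, a difference of -2.45 (-3.83 to -1.06). In untreated lines it was 8.12 to 8.82 in BL and 10.96 to 14.69 in FL/GCB, a difference of -4.82 (limma adjusted p = 0.211), without overlap in either condition. RNF135, a ubiquitin ligase that acts on the RNA sensor RIG-I, was likewise apart in both conditions, with 9.69, 9.03 and 8.35 in treated Ramos, Raji and BL41 against 11.03 to 12.34 in FL/GCB and differences of -2.74 treated and -2.47 untreated.

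For CSPP1, a centrosomal protein, APLP1, an amyloid precursor-like protein, and HYAL2, a hyaluronidase, the untreated difference was below 1 log2 unit in size. APLP1 was 8.27, 7.23 and 7.66 in treated Ramos, Raji and BL41, against 9.21 to 11.39 in FL/GCB, and HYAL2 was 7.95, 7.92 and 7.70, against 8.84 to 10.99. CSPP1 was 8.01 in BL41 but 10.84 in Raji and 11.36 in Ramos, against 11.78 to 13.64, and its second element differed by -0.38 with overlap. SPAG16, an axonemal protein, similarly rested on Raji at 8.16, with 12.33 in Ramos and 11.94 in BL41, against 12.51 to 14.25, and its second element differed by -0.063 with overlap. The remaining genes were PFN2, an actin-binding profilin (-2.84), PARM1, a mucin-like membrane protein (-2.77), and MAZ, a zinc finger transcription factor (-2.48). SC-1 was the lowest FL/GCB line for 9 of these 12 genes, and Ramos the highest BL line for 8.

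**Figure D2:**
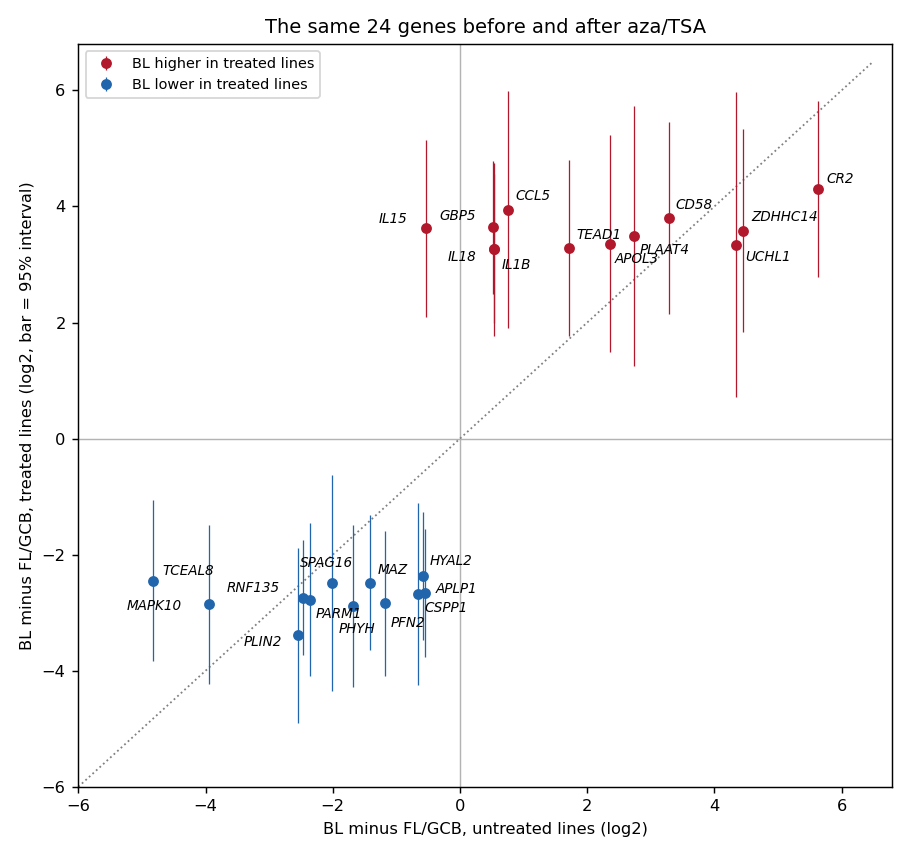
Difference BL minus FL/GCB (log2) in treated lines (y axis, with 95% interval) against the same difference in untreated lines (x axis) for the 24 genes. Points on the dotted line had equal differences in both, IL15, GBP5, IL18, IL1B and CCL5 lie near 0 on the x axis, and CR2, ZDHHC14 and UCHL1 far to the right.

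Most genes without overlap in the treated lines overlapped in the untreated lines, as did most of all named genes. Of the 295 genes higher in all treated BL lines, 35 were also higher in all untreated BL lines, which is 11.9% of the treated and 13.1% of the 267 untreated genes (1.73% of all named genes). Of the 259 genes lower in all treated BL lines, 21 were also lower before treatment, which is 8.1% of the treated and 8.9% of the 235 untreated genes (1.52%). In the untreated lines, 0 elements passed at an adjusted p under 0.05 (limma, smallest adjusted p = 0.116), 1487 (4.52%) had an unadjusted p under 0.05, and 1047 (3.18%) did not overlap. The conditions share the 8 lines but no array. A gene can leave these counts through 1 line, as CD58 and UCHL1 did through untreated Sudhl6, at untreated differences of 3.28 and 4.34. The counts therefore do not measure how far treatment changed a difference.

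The promoters of 4 genes are given with their CpG sites in capitals, because aza acts on methylated CpG sites. The lines for CR2 were free of overlap in both conditions, with a difference of 5.62 before treatment. Those for UCHL1, IL1B and GBP4, another guanylate-binding protein, were free of overlap only after treatment. Their untreated differences were 4.34, 0.54 and -1.99. A relation of CpG sites to these differences was not tested. Shown are the 250 bases before the transcription start, 5′ to 3′ on the strand of the gene, from RefSeq, GRCh38.p14.
CR2, chr1:207454078-207454327, plus strand: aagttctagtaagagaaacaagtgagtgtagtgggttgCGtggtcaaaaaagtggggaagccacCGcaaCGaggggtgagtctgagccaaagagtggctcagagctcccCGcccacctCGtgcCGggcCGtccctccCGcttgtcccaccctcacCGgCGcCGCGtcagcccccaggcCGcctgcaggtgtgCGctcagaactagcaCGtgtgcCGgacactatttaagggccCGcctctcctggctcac
UCHL1, chr4:41256678-41256927, plus strand: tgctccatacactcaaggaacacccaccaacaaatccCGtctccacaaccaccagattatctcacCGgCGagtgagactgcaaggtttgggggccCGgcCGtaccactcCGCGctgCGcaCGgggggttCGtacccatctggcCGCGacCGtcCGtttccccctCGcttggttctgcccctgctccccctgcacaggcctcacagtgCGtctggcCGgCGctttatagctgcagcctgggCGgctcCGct
IL1B, chr2:112836780-112837029, minus strand: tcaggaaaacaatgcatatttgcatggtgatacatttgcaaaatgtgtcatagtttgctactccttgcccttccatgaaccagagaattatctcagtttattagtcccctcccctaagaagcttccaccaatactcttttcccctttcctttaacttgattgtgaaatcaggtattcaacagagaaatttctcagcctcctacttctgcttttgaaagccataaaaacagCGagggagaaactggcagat
GBP4, chr1:89198943-89199192, minus strand: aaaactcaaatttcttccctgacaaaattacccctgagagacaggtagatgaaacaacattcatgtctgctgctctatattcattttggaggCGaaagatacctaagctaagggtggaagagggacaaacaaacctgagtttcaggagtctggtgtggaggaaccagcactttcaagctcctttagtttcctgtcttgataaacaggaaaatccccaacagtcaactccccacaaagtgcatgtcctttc
The windows held 17 CpG sites for CR2 and 20 for UCHL1, against 1 each for IL1B and GBP4. The median over the 12545 named genes with a promoter in the RefSeq table used was 18, and 2.8% of these promoters had fewer sites than IL1B and GBP4. Methylation was not measured on these arrays. Among the genes lower in all treated BL lines, 213 of 259 (82.2%) had a promoter, with a median of 20 CpG sites. Among those higher, 212 of 295 (71.9%) had one, and the check is void for them because too large a share of the genes had no entry. The motif CACGTG, which MYC and MAX bind, was searched on both strands and was present in 8.0% of all these promoters, in 6.1% of those of the genes lower in all treated BL lines and in that of CR2.

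In the response of the lines, treated minus untreated, 0 elements passed (limma, smallest adjusted p = 0.468), 1719 (5.23%) had an unadjusted p under 0.05, and the BL and FL/GCB responses did not overlap for 1238 (3.77%). CDH1, the epithelial adhesion molecule E-cadherin, measured 11.34, 11.84 and 12.92 in treated Ramos, Raji and BL41, against 9.91, 8.57, 8.69, 9.44 and 9.64 in SC-1, K422, ROS-50, Sudhl4 and Sudhl6. Untreated levels were 7.90 to 8.15 in BL and 7.95 to 9.32 in FL/GCB, so that the BL lines were within the range of the others or just below it. The responses were 3.32, 3.68 and 5.02 in Ramos, Raji and BL41, against 0.23 in K422 to 1.61 in Sudhl6, a difference of 3.20 (2.11 to 4.30, adjusted p = 0.468). FABP6, a bile acid-binding protein, and CSTA, the protease inhibitor cystatin A, responded by 3.81 and 4.88 on average in BL, against 0.09 and 1.13 in FL/GCB. In treated cells, however, their lines overlapped, since Sudhl4 had 12.86 for FABP6 and SC-1 16.23 for CSTA.

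SPRED2, an inhibitor of Ras signalling, and GBP4 had mean responses of opposite sign, at 2.47 and 1.40 in BL, against -1.37 and -2.24 in FL/GCB. SPRED2 was 9.97, 10.78 and 12.32 in treated Ramos, Raji and BL41, against 8.12 to 9.67 in FL/GCB, while untreated it was 7.29 to 9.66 in BL and 9.13 to 10.97 in FL/GCB. GBP4 was 9.95, 11.15 and 10.18 in treated Ramos, Raji and BL41, against 8.23 to 9.33, and only Raji exceeded the array median. The opposite signs of GBP4 held for the means only, since BL41 responded by -0.20, close to -0.25 in K422. SC-1 responded by -6.92, and its untreated level of 15.75 stood far above the other lines. PRKAR2B, a regulatory subunit of protein kinase A, had been 16.11 to 17.73 in untreated BL lines and 10.34 to 16.74 in untreated FL/GCB lines. After treatment it was 15.63 to 16.45 in BL and 13.38 to 16.88 in FL/GCB, so that the difference was 1.31 treated and 4.83 untreated. FCGRT, the neonatal Fc receptor, responded by -0.34 to -0.03 in BL, against 2.08 to 3.28 in FL/GCB. CXCR4, the receptor that retains B cells in the dark zone of germinal centres, measured 16.56 to 17.31 in treated BL lines and 15.36 to 18.10 in treated FL/GCB lines, and its response difference of -2.55 included the increase of 5.67 in K422, whose untreated level was only 9.69.

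For all genes chosen for their role in these lymphomas, the lines of the treated groups overlapped, as for most named genes. Of all named genes, only 1.91% were higher and 1.68% lower in BL without overlap. MYC measured 13.75 in Ramos, 15.43 in Raji and 11.95 in BL41, against 13.64 in SC-1, 15.97 in K422, 15.90 in ROS-50, 15.04 in Sudhl4 and 14.31 in Sudhl6. The groups overlapped, with a difference of -1.26 (-2.96 to 0.43, limma adjusted p = 0.971). Untreated levels were 16.80 to 18.40 in BL and 17.43 to 18.39 in FL/GCB (difference 0.06), and MYC was lower after treatment in 8 of 8 lines, by a mean difference of -4.09 in BL and -2.76 in FL/GCB (response difference -1.32, -2.71 to 0.07). MAX, its dimerization partner, was 11.82 to 12.85 in treated BL lines and 12.36 to 14.96 in FL/GCB, where SC-1 alone was below Ramos. Its difference was -1.82 after and -1.79 before treatment.

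BCL2, the apoptosis inhibitor, differed by -0.05 (-0.87 to 0.76), with 11.14 to 11.80 in BL and 11.05 to 11.87 in FL/GCB. BCL6, the germinal centre repressor, differed by -0.35 (-1.32 to 0.62), and MME, which encodes CD10, by 0.41 (-0.55 to 1.38). CD38, a surface enzyme of germinal centre and plasma cells, was 13.45, 13.44 and 12.52 in Ramos, Raji and BL41, against 10.40 to 12.95 (difference 1.40). LMO2, a germinal centre transcription cofactor, was 10.92 to 12.12 in BL, against 10.93 to 14.20 (difference -1.18). CD44, an adhesion receptor usually low in BL tumours, was 12.10 and 12.18 in Ramos and Raji but 9.27 in BL41, against 8.23 to 11.06 in FL/GCB, and it had differed by -0.14 before treatment. ID3, CCND3, TERT, TCL1A and LEF1 differed by at most 0.47, with intervals that included 0. TERT was dim, below the array median in every treated line, with its highest level of 9.37 in Ramos. Like most named genes, the 7 genes the study carried on to patient material overlapped between the groups. Their differences ran from 0.06 for KLF9 to 1.27 for NR4A2.

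**Figure D3:**
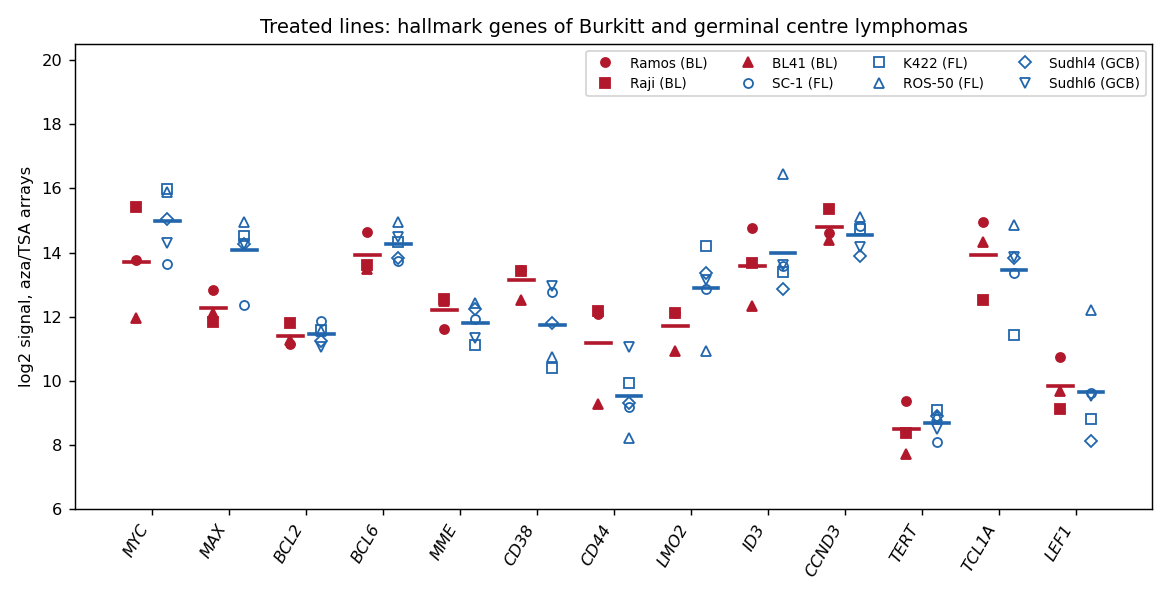
Log2 signal of 13 genes with roles in Burkitt and germinal centre lymphomas on the treated arrays. Symbols as labelled, BL left and FL/GCB right of each gene, and bars for group means. The groups overlap for every gene shown, as they do for most named genes.

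Gene lists with defined roles were then counted and set beside all named genes. Of these, 49.3% had a higher mean in treated BL, with a median difference of -0.01. Without overlap of the lines, 1.91% were higher and 1.68% lower in BL. A list with 0 such members is therefore near the share of all named genes. In every list 0 members passed the test. Of 25 measured NF-kB target genes, 23 had a higher mean in BL (median 0.99 treated, 0.48 untreated), and 0 of them separated the lines without overlap. Raji had the highest level of all 8 treated lines for 21 of the 25, while it was highest for 11.0% of all named genes. Relative to the FL/GCB mean, the median target was 3.65 higher in treated Raji, 0.12 higher in Ramos and -0.45 in BL41. In untreated cultures the same medians were 0.60 in Raji, 0.20 in Ramos and 0.28 in BL41. CCL22, a T-cell chemokine, was 15.93 in treated Raji, 11.34 in Ramos and 7.39 in BL41, against 7.33 to 10.05 in FL/GCB. TRAF1 and EBI3, both known NF-kB targets in activated B cells, were 15.05 and 15.49 in Raji, against at most 10.44 and 10.39 in Ramos and BL41. TNFAIP3, the feedback inhibitor A20, was 12.95, 15.79 and 12.91, against 10.27 to 13.27. Without Raji the median of the list was 0.14, with 16 of 25 members higher, and it was 1.53 without Ramos and 1.62 without BL41.

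Of 31 interferon-stimulated genes, 24 had a higher mean in BL (median 0.82 treated, 0.21 untreated), again with 0 free of overlap. They were highest in Raji for 18 and in the FL line K422 for 12. IFIT1, an antiviral RNA-binding protein, was 17.17 in Raji, 14.51 in Ramos and 12.55 in BL41, against 10.79 in Sudhl6 to 13.95 in SC-1. OASL, a 2′-5′-oligoadenylate synthetase-like protein, was 16.56 in Raji and 15.70 in K422, and IFIH1, a sensor of double-stranded RNA, 16.61 in Raji, 14.36 in Ramos and 10.89 in BL41, against 9.01 to 13.56. Relative to the FL/GCB mean the median gene was 2.54 higher in treated Raji, 0.65 in Ramos and -0.50 in BL41. K422 stood at 1.51 on this measure, above Ramos and BL41, and at 1.24 in the untreated cultures. Without Raji the median of the list was 0.02, with 16 of 31 members higher. It was 1.65 without BL41, with 28 higher, and 1.17 without K422, with 29 higher.

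**Figure D4:**
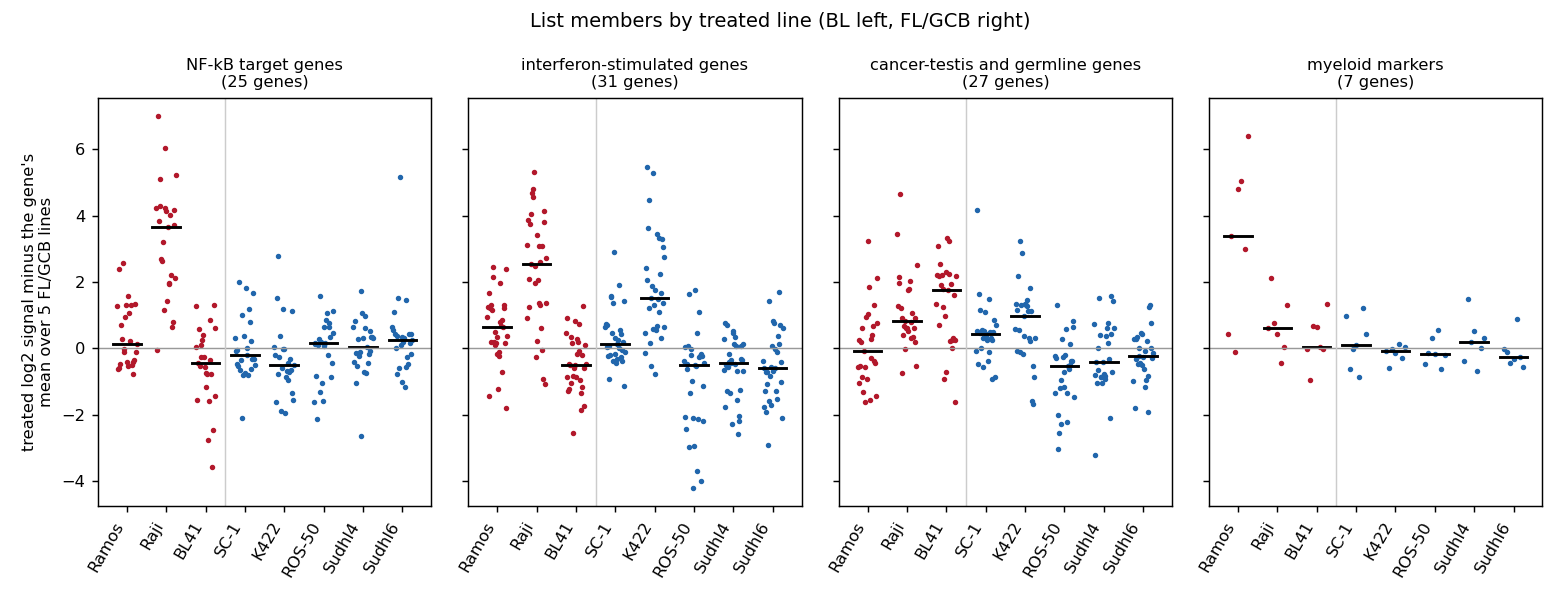
Members of 4 gene lists on the treated arrays, each point 1 gene as log2 signal minus its mean over the 5 FL/GCB lines, and black bars the median per line. BL lines stand left of the grey line, and the median lies at 3.65 in Raji for NF-kB targets and at 3.38 in Ramos for myeloid markers.

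Cancer-testis and germline genes, normally silent outside the germline, had a higher median in BL with any 1 line left out, but not in every BL line. Relative to the FL/GCB mean the median gene was 1.77 higher in BL41 and 0.81 higher in Raji, but -0.10 in Ramos, below K422 (0.98) and SC-1 (0.41). A higher mean in BL was found for 23 of 27 (median 0.74), against 13 of 27 in untreated lines (median -0.02). Leaving out any 1 line gave medians from 0.56 (without BL41) to 1.22 (without Ramos). TEX14, needed for intercellular bridges of germ cells, measured 13.31, 13.70 and 13.36 in Ramos, Raji and BL41, against 11.89 in SC-1, 11.48 in K422, 9.72 in ROS-50, 11.78 in Sudhl4 and 11.04 in Sudhl6. The groups did not overlap, with a difference of 2.28 (1.15 to 3.40, limma adjusted p = 0.734), and 0.37 before treatment. MAGEC1, a melanoma antigen family member, was 11.30, 9.83 and 11.39, against 7.21 to 9.35 (difference 2.78), and it was 0.56 apart before treatment. MAGEB1 was the third of the 27 members without overlap, against 1.91% of all named genes higher without overlap. DDX43 and MAEL, of germline RNA and transposon control, differed by 1.84 and 1.45 with overlap. BL41 was highest for 11 of the 27.

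Germinal centre genes leaned the other way, with 4 higher and 13 lower of 17 (median -0.56 treated, -0.24 untreated). RGS13, a regulator of chemokine signalling, was 12.97, 12.06 and 10.51 in Ramos, Raji and BL41, against 11.38 to 15.30 (difference -1.46), and EZH2, a histone methyltransferase, 12.18, 12.38 and 11.38 against 12.33 to 14.26 (difference -1.12). S1PR2, a receptor that confines B cells to the follicle, was the member without overlap, at 9.02, 9.82 and 9.42 against 9.88 to 11.07. ROS-50 was highest for 9 of the 17, and without it the median was -0.29. Of 23 genes of B-cell receptor signalling, 18 were lower (median -0.32 treated, -0.35 untreated), among them the kinases SYK, with 12.01, 11.60 and 8.44 against 11.11 to 13.80, and PIK3CD, with 8.26, 9.93 and 7.60 against 8.46 to 11.22. Without BL41 the median was 0.07, with 14 of 23 higher, and it was -0.59 without Ramos and -0.15 without ROS-50. CD79A, the signalling chain of the receptor, was 17.61 in Ramos, 14.77 in Raji and 15.34 in BL41, against 13.56 to 15.22.

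The median of HLA class II genes had opposite signs in treated and untreated lines. In treated lines 13 of 15 had a higher mean in BL (median 0.37), in untreated lines 3 of 15 (median -0.25), and the response was higher in BL for 14 of 15 (median 0.78). HLA-DOB, a modulator of peptide loading, was 12.28, 12.78 and 11.89 in Ramos, Raji and BL41, against 11.47 to 11.62, without overlap (difference 0.79). RFXAP, a subunit of the complex that switches on these promoters, was the opposite case, at 10.49, 9.50 and 8.99 against 10.86 to 12.06 (difference -1.83). The median was 0.05 without Raji, 0.12 without Ramos, 0.90 without BL41, 0.23 without ROS-50 and 0.19 under median scaling, and elements of paralogous HLA genes may share signal.

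Plasma cell genes were higher in 8 of 11 (median 0.61 treated, 0.43 untreated), led by JCHAIN, the joining chain of IgM and IgA, with 17.96, 16.36 and 15.99 against 13.38 to 16.21 (difference 2.01). Their median was 0.17 without Ramos, 0.24 without Raji and 0.33 without ROS-50. BCL2 family genes had a median of 0.45, with 9 of 15 higher, and 0.21 without ROS-50, 0.26 without Sudhl4, 0.24 under median scaling and 0.28 without normalization. BCL2A1 was 16.81 in Raji, 13.83 in Ramos and 12.60 in BL41, against 10.96 to 13.23, and BAX, a pro-apoptotic member, 12.43, 12.12 and 14.57, against 13.04 to 14.64. The MYC and MAX network (5 of 10 higher, median 0.00), growth metabolism (9 of 21, -0.06), ribosome biogenesis (9 of 23, -0.22), proliferation (10 of 29, -0.23) and genes high in Burkitt tumours (6 of 13, -0.20) had medians between -0.23 and 0.00. Without BL41 the median was 0.23 for genes high in Burkitt tumours, 0.22 for growth metabolism, 0.08 for proliferation (16 of 29 higher) and -0.19 for the MYC and MAX network. Without ROS-50 it was 0.22 for genes high in Burkitt tumours, and under median scaling it was -0.40 for ribosome biogenesis (5 of 23 higher). PLK1, a mitotic kinase, was 11.62, 12.70 and 9.97, against 11.66 to 14.23. In the DNA methylation and deacetylation machinery 14 of 23 were lower (median -0.22), and TET1, a 5-methylcytosine oxidase, did not overlap, at 8.54, 9.06 and 8.20 against 9.48 to 11.57. Its other elements differed by -0.70 and -0.06 and overlapped. The remaining lists, of HLA class I, B-lineage transcription factors, B-cell surface antigens, adhesion, cyclins and their inhibitors, immediate-early genes, deacetylase inhibitor response, heat shock, death receptors and the candidate genes of the study, had medians between -0.16 and 0.32. The signs of several of these turned with single lines. Without Raji the median was -0.30 for immediate-early genes (8 of 27 higher, against 17 of 27 with it), 0.04 for adhesion and 0.09 for HLA class I. It was -0.28 for B-cell surface antigens without Ramos, 0.24 for B-lineage transcription factors without BL41, -0.11 for death receptors without Sudhl4, -0.09 for the candidate genes without Sudhl6 and 0.61 for adhesion without K422.

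Several marker lists of other cell types had higher medians in treated BL. All 7 measured myeloid markers had a higher mean in treated BL (median 1.51, and 0.49 untreated), and the summed linear signal ranged from 6720 to 82300 in BL and from 4810 to 7090 in FL/GCB. The high sum was that of Ramos, where S100A9 was 15.15, LYZ 14.12 and MPO 13.81, while Raji and BL41 had at most 10.08 for these genes. Without Ramos the median was 0.53, and without BL41 it was 2.30. MPO was as high in untreated Ramos, at 14.26, while S100A9 and LYZ were 10.96 and 10.18 there. Of 5 epithelial markers 4 were higher (median 1.20, and -0.09 untreated), with summed signals of 9660 to 29000 in BL and 4030 to 11000 in FL/GCB. KRT18, a simple epithelial keratin, was 11.64, 12.22 and 13.35, against 9.80 to 12.12. All 5 stromal and endothelial markers were higher (median 1.04, and 0.13 untreated), on summed signals of 3420 to 6970 in BL and 1970 to 3460 in FL/GCB. T-cell and NK-cell markers had medians of 0.12 and 0.39 (-0.15 for T-cell markers without ROS-50 and 0.08 for NK-cell markers without BL41), with summed T-cell signals of 5890 to 10300 in BL and 3640 to 38200 in FL/GCB. The high FL/GCB value was that of K422, where CD3G was 12.79. Markers above the array median in 2 or more treated lines of a group were 3 of 7 myeloid and 4 of 5 epithelial ones. They were 1 of 5 stromal and endothelial, 1 of 8 T-cell and 1 of 5 NK-cell markers, so that most of these 3 lists were dim. No marker had a log2 level of 0 or below, which says nothing about dim levels. The part of other cells or of background in these values was not tested.

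**Figure D5:**
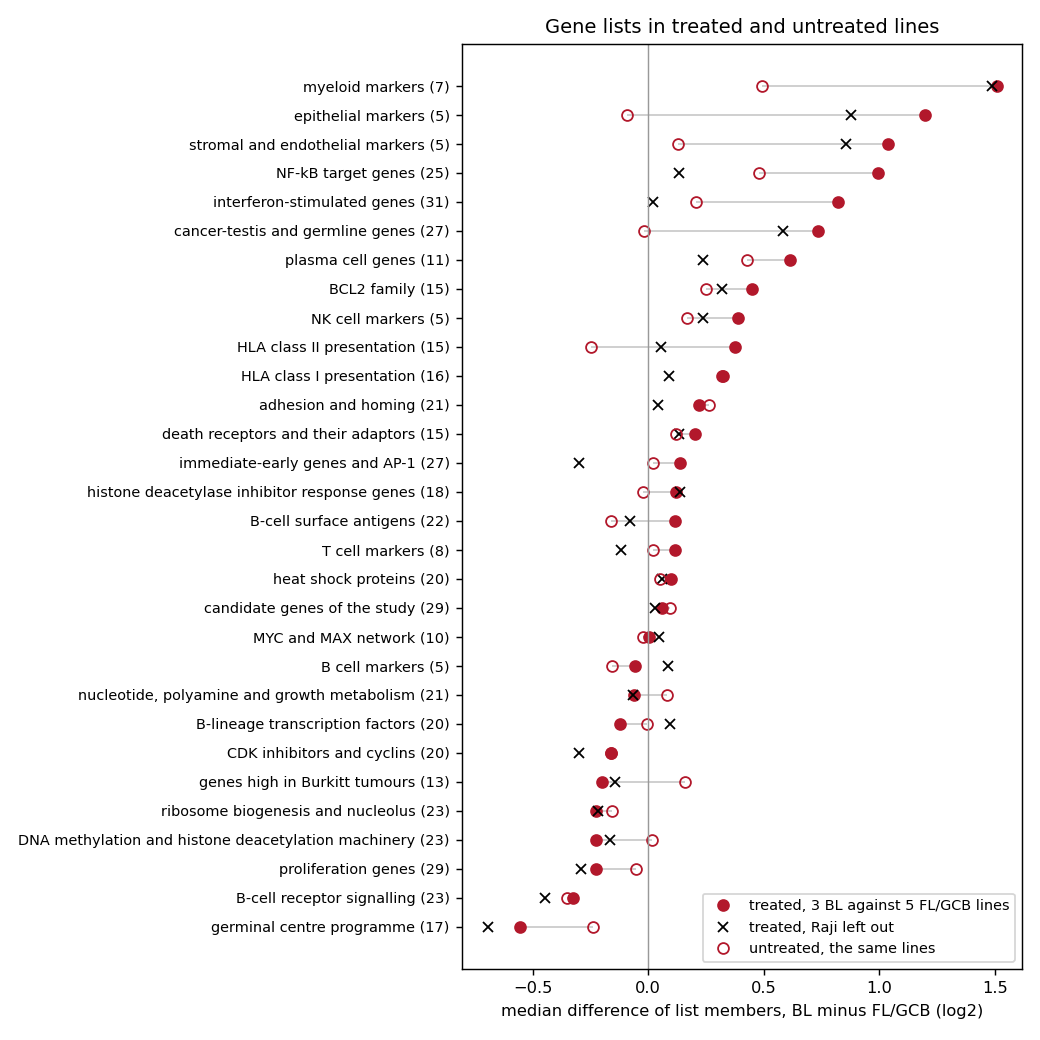
Median difference BL minus FL/GCB (log2) over the measured members of 30 gene lists (number in brackets), in treated lines (filled), in treated lines without Raji (crosses) and in untreated lines (open). The crosses of the NF-kB and interferon lists lie at 0.14 and 0.02, those of cancer-testis genes and myeloid markers at 0.58 and 1.49.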

How the data were processed

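Expression was measured with a 1-colour chemiluminescent array of 32878 elements, 1 array per line and condition. The authors deposited raw intensity values read by the array analyzer, and log2 values from ABarray, which equal the log2 of the deposited intensity values after quantile normalization over 22 arrays to within 5.0e-09. The labels name Trizol and the NanoAmp kit for RNA isolation and labelling, the methods of the study other kits. All columns were assigned to a line and condition from the labels (0 left out), and the lymphoma type of a line was taken from the methods.

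Elements were named through the platform annotation, updated with RefSeq (17073 with 1 gene, 139 with several, 15666 unnamed, 15461 genes). For several elements of a gene, the brightest over the 8 treated arrays was used. BL and FL/GCB lines were compared with limma 3.58.1 in R 4.3.3 (lmFit, eBayes, two-sided, all elements adjusted together by Benjamini-Hochberg, threshold 0.05), without covariates, on treated arrays, on untreated arrays and on the difference of both within each line. Since nothing passed, genes were named from those without overlap of the lines. The 12 largest differences in each direction had to exceed the median of the array in 2 or more lines of the higher group. The 5 largest response differences in each direction had to exceed it in 2 or more lines of either group, treated or untreated. Also named are hallmark genes, the 7 genes the study took to patient material, and up to 4 members of each list with the largest difference. The members, the 31 lists (486 of 539 members measured) and the tests were chosen with earlier results of these data known. The scripts were tested on simulated data. Alternatives were other normalizations, a filter and a floor on dim elements, other reference lines, a cell line block, the mean of elements, and each line left out.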

Additional observations from a re-analysis of the deposited data

Results flagged for a closer look

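Responses to treatment went one way in all 3 BL lines and the other way in all 5 FL/GCB lines for 201 of 32878 elements (0.611%). The 4 named genes among them had been chosen for large response differences without overlap, so that they are a description and their number is no result. SPRED2 was higher after treatment in Ramos (2.69), Raji (1.12) and BL41 (3.59) and lower in all FL/GCB lines (-2.38 to -0.55), a response difference of 3.84 (limma adjusted p = 0.529). PRKAR2B was lower in all BL lines (-1.78 to -0.48) and higher in all FL/GCB lines (0.13 to 3.52), a difference of -3.52. FCGRT differed by -2.68, although the BL responses of -0.34 to -0.03 were near 0, and ATP6V0E2-AS1, an antisense RNA, by -2.55. None of these differences passed the test.

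For 2 of 52 named genes examined, a single treated FL/GCB line stood far from the other FL/GCB lines, by Dixon's criterion. Chance meets this criterion in about 1 of 20 groups, so that the number of 2 is no result. ZNF555 was 15.76 in Sudhl6, with the next line at 12.11 (gap over range 0.713). ID3, an inhibitor of E proteins, was 16.45 in ROS-50, with the next line at 13.62 (gap over range 0.788).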

How the results depend on the processing

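Under all alternatives the treated comparison had 0 elements higher and 0 lower, except 1 higher with a floor at the 25th percentile (IL1R1, difference 1.38, limma adjusted p = 0.0386). The response comparison had 0 throughout. In untreated lines 1 element was higher under median scaling, without normalization and with the activated B-cell type arrays sharing the spread (CR2 each time), and 0 to 2 were higher and 0 to 2 lower when 1 line was left out (without Ramos RUNX1T1 higher and CYB5A lower, without SC-1 ENAH and CLEC2B higher and TMEM259 and TCEAL8 lower). With the cell line as a replicate block over treated and untreated arrays (consensus correlation 0.385), 3 were higher (RUNX1T1, CR2, LY75) and 1 lower (TCEAL8) in untreated lines, and 0 in treated lines.

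Counts of elements without overlap moved with the number of lines and elements by construction. Higher and lower in BL were 292 and 294 among 17689 detected elements, 1543 and 1436 against FL lines only, 3506 and 3747 against GCB lines only, 833 to 1658 and 782 to 1543 with 1 line left out, and 2173 and 2057 without BL41 and Sudhl4 (chosen after seeing the data). Without normalization 223 were lower, and the cause was not tested.

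Signs turned for 9 genes with small differences. With 1 line left out the ranges were -0.25 to 0.077 for BCL2, -0.99 to 0.23 for ID3, -0.037 to 0.44 for CCND3, -0.13 to 0.45 for KCNH2, -0.31 to 0.77 for KLF9, -0.25 to 0.83 for LEF1, -0.042 to 1.19 for TCL1A and -0.64 to 0.18 for TERT. Against GCB lines only, BCL2 was 0.26 and ID3 0.34. Against FL lines only, CCND3 was -0.095, LEF1 -0.36, KCNH2 -0.22 and KLF9 -0.86. Without BL41 and Sudhl4, TERT was 0.23, LEF1 -0.10, KCNH2 -0.081, KLF9 -0.034 and MTSS1 -0.12. TERT was 0.026 and KCNH2 -0.074 without normalization, KCNH2 -0.12 under median scaling and -0.21 as the mean of its elements, and with the floor TERT was 0.072 and KLF9 -0.18. Elements outside the 17689 detected ones were dim, which limits the precision of low levels.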
